A study of Mus musculus with 15 samples.

Results

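Thalamic neuron markers are genes that mark the excitatory relay neurons of the thalamus. They were followed here as 9 genes chosen by mouse symbol: the transcription factors Tcf7l2, Lef1 and Rora, the glutamate transporter gene Slc17a6, the signalling genes Prkcd, Plekhg1 and Ramp3, the calcium-binding protein gene Calb2 and the troponin gene Tnnt1. All 9 were found among the 46078 genes of the count table, and all 9 were among the 18974 genes kept for testing after a filter on low counts. RNA was sequenced from 15 mice of both sexes, each a separate animal by its number in the labels, and every mouse was 12 months old. The WT PBS group was 5 wild type mice given 100 µL of PBS per injection. The APP-PS1 PBS group was 5 mice of the APP Swedish PS1 dE9 strain given PBS in the same way. The anti-CD8a group was 5 APP-PS1 mice injected with 0.8 mg of an antibody to CD8a, a surface protein of cytotoxic T cells. Treatment lasted 4 weeks, with 10 injections. By label, all but 1 of the WT PBS mice were female, and each APP-PS1 group held more males than females. APP-PS1 mice carry 2 transgenes under the prion protein promoter, which drives them in neurons of the central nervous system: Mo/HuAPP695swe, a chimeric mutant form of the amyloid precursor protein, and PS1-dE9, a mutant form of human presenilin 1. The tissue is labelled only as brain. It was a region dissected from 1 hemisphere after perfusion, and no source used here names the region.

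The thalamus relays sensory and motor signals to the cortex and receives signals back from it. Its relay neurons load glutamate into synaptic vesicles with the transporter encoded by Slc17a6, whereas most glutamatergic neurons of the cortex and hippocampus use the one encoded by Slc17a7. Tcf7l2 and Lef1 encode DNA-binding partners of β-catenin, the nuclear arm of Wnt signalling, and Tcf7l2 keeps the identity of thalamic neurons after they have stopped dividing. The markers are not exclusive to the thalamus. Rora is also used by Purkinje cells, Lef1 by brain endothelium, Tcf7l2 by cells of the oligodendrocyte lineage, and Calb2 by a class of cortical and hippocampal interneurons.

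RefSeq start sites (build GRCm38.p6) were matched for 8 of the 9 members, 14 promoters in all, each taken from 250 bases before the start to 50 bases after it. Calb2 had no entry. The promoters of Tnnt1, Ramp3 and Prkcd are shown because these genes stood farthest above the other libraries in 1 animal, and the Lef1 promoter is shown with the Prkcd one because they hold the only matches to the motifs searched. Sequences run 5′ to 3′ on the gene's strand, and capitals mark a match.
Prkcd, start 1 of 2, chr14:30626159-30626458, minus strand: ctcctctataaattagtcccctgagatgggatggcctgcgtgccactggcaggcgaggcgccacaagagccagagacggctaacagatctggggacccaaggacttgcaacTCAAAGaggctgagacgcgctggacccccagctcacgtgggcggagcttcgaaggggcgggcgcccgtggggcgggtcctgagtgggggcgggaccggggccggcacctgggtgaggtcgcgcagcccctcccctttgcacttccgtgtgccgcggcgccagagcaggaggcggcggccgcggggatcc
Lef1, start 4 of 4, chr3:131156044-131156343, plus strand: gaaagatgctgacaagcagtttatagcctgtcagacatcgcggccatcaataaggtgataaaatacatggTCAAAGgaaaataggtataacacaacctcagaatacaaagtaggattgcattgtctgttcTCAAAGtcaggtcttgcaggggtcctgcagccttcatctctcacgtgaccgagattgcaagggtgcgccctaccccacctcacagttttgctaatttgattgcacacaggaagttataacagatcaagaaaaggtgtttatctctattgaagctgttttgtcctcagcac
Tnnt1, chr7:4515926-4516225, minus strand: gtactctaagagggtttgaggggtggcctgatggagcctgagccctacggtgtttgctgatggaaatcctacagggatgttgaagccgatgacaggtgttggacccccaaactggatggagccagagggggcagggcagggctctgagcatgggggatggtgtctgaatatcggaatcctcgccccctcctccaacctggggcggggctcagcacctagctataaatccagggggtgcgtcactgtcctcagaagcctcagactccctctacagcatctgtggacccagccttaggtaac
Ramp3, chr11:6658283-6658582, plus strand: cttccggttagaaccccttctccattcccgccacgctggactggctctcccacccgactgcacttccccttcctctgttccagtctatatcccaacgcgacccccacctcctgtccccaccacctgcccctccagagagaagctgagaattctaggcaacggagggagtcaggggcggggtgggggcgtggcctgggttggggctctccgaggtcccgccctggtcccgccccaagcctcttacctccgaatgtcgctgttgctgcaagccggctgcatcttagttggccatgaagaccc
The TCF and LEF core CTTTGA, searched on both strands and so also as TCAAAG, was in 2 of the 14 promoters and in 16.0% of all 32851 mouse promoters in the same table. Its matches began at base 112 of the Prkcd promoter and at bases 71 and 131 of the Lef1 promoter. The ROR core AGGTCA, also as TGACCT, was in 0 of the 14 and in 16.3% of all promoters. With no match to the second motif, no match overlapped another motif. A match describes letters in a window and is neither a binding site nor a measure of one.

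Each library held 17736524 to 36485809 counts assigned to genes. Levels are given in CPM, counts brought to a common library size with TMM scaling factors. Ttr, a choroid plexus gene, lay at 1652 to 6468 CPM in 5 libraries and at 20.7 to 107 CPM in the other 10. The 5 were WT PBS replicates 3 and 5, APP-PS1 PBS replicates 2 and 5 and anti-CD8a replicate 1. In 1 library, APP-PS1 PBS replicate 1, genes of the sex chromosomes went against the labelled sex, which was male. A further library, anti-CD8a replicate 4, stood apart in the markers described here, so results that rest on it are given with and without it. By label this mouse was male and its animal number began with 85. The same holds for APP-PS1 PBS replicate 3, WT PBS replicate 5 and anti-CD8a replicate 5.

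In that one anti-CD8a animal, 8 of the 9 markers reached the highest level of all 15 libraries, and only Calb2 did not. Tnnt1 stood at 20.1 times the median of the other 14 libraries, Tcf7l2 at 6.61 times, Ramp3 at 5.80 times, Prkcd at 4.60 times, Slc17a6 at 4.02 times, Plekhg1 at 3.08 times, Rora at 2.40 times and Lef1 at 2.18 times, with Calb2 at 0.991 times. APP-PS1 PBS replicate 3 came second for 6 of the 9, a count for which no share over all genes was computed. Between groups, no marker passed the test in any of the 3 comparisons, and the values of every marker overlapped between every pair of groups. In bulk tissue such as this, more cells of a type and more RNA per cell cannot be told apart.

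**Figure D1:**
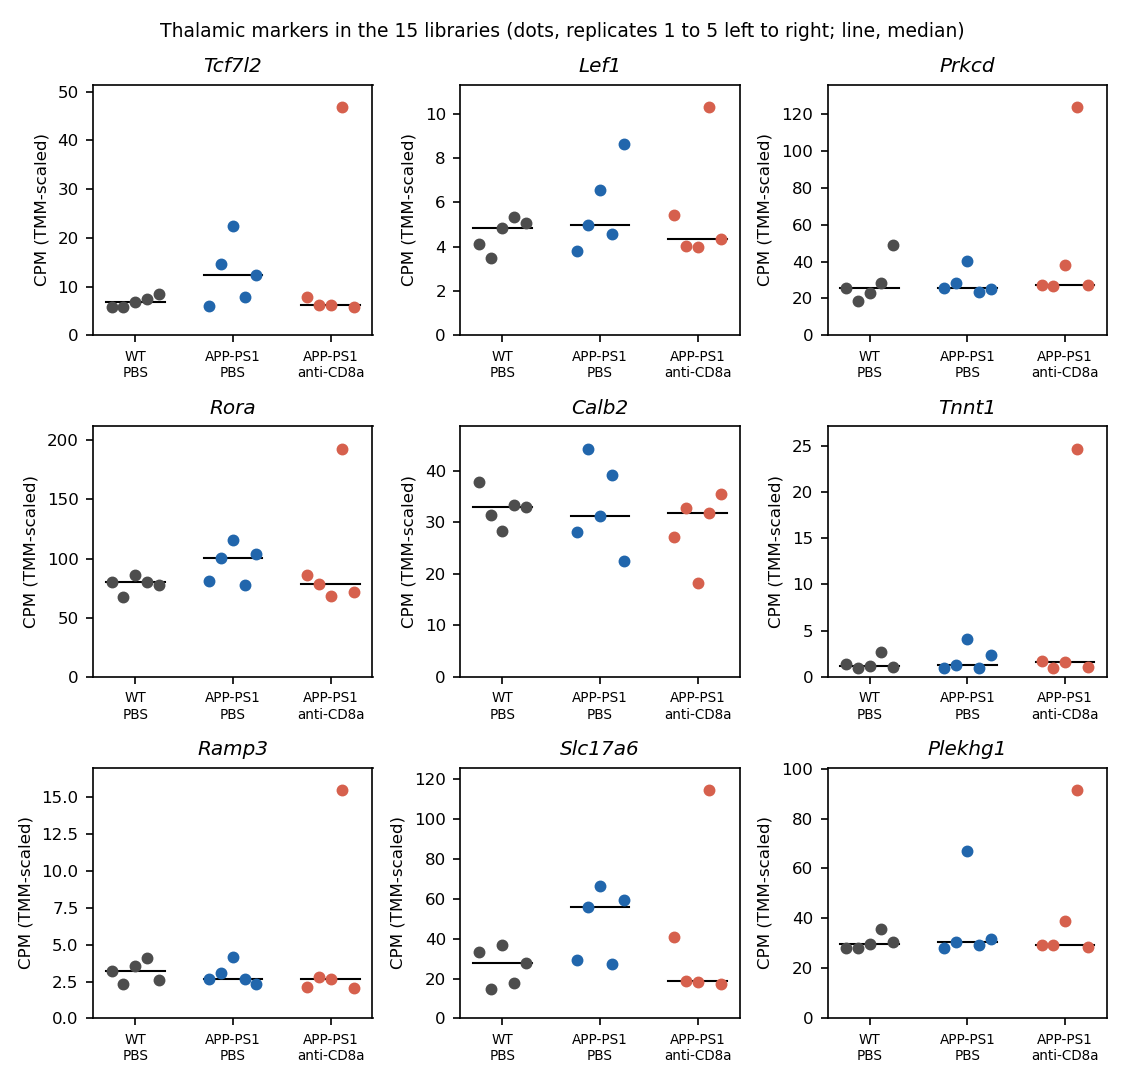
Level of each of the 9 markers in CPM (vertical axis of each panel) in the 15 libraries, grouped as WT PBS, APP-PS1 PBS and anti-CD8a, 1 point per mouse. The anti-CD8a mouse of replicate 4 is the highest point for every marker except Calb2, and Tnnt1 there reaches 24.7 CPM against at most 4.10 CPM elsewhere.

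Among the transcription factors, Tcf7l2 had the widest reach. In WT PBS mice, replicates 1 to 5, it was at 5.75, 5.73, 6.76, 7.41 and 8.47 CPM. APP-PS1 PBS mice had 5.95, 14.6, 22.5, 7.93 and 12.4 CPM. Anti-CD8a mice had 7.94, 6.22, 6.23, 46.8 and 5.77 CPM. Thus 3 of 5 APP-PS1 PBS mice lay above every WT mouse, 2 lay within the WT range, and 4 of 5 anti-CD8a mice lay within it as well. The anti-CD8a mean of 14.6 ± 18.0 CPM (SD, n = 5) therefore carried an SD larger than itself, while the WT PBS mean was 6.82 ± 1.16 (SD, n = 5) and the APP-PS1 PBS mean was 12.7 ± 6.48 (SD, n = 5).

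Lef1, the second β-catenin partner, varied less. It was at 4.11, 3.48, 4.85, 5.34 and 5.06 CPM in WT PBS mice. It was at 3.80, 4.98, 6.57, 4.58 and 8.61 CPM in APP-PS1 PBS mice. The anti-CD8a mice had 5.44, 4.02, 3.97, 10.3 and 4.34 CPM. The highest mouse, anti-CD8a replicate 4, was 1.19 times the next, APP-PS1 PBS replicate 5. Rora, a nuclear receptor that binds DNA at ROR elements, was the most counted of the 9. Its WT PBS values were 80.3, 67.5, 86.5, 80.6 and 77.9 CPM. APP-PS1 PBS values were 81.2, 100.3, 115.7, 77.8 and 104.1 CPM, and anti-CD8a values were 85.9, 78.1, 68.6, 192.8 and 71.4 CPM. As for Tcf7l2, APP-PS1 PBS replicates 2, 3 and 5 lay above all WT mice. Replicates 2 and 5 are among the libraries with high Ttr, at 4122 and 1652 CPM, and replicate 3 had 57.1 CPM of Ttr; the part of choroid plexus tissue in these values was not tested.

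Slc17a6, the vesicular glutamate transporter of relay neurons, had 33.5, 14.7, 36.7, 17.7 and 27.7 CPM in WT PBS mice. APP-PS1 PBS mice had 29.2, 55.7, 66.7, 27.3 and 59.5 CPM. Anti-CD8a mice had 40.6, 18.7, 18.4, 114.6 and 17.0 CPM. The same 3 APP-PS1 PBS mice were again above the WT range, and 3 of the 5 anti-CD8a mice were near its lower end. The sister transporters did not single out anti-CD8a replicate 4: Slc17a7 was at 730.4 CPM there against a median of 803.4 in the other 14, and Slc17a8, the transporter of a few scattered neuron types, was at 5.71 against 6.72.

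Prkcd encodes protein kinase C delta and Ramp3 a membrane protein that pairs with the calcitonin receptor family. WT PBS mice had 25.9, 18.7, 22.7, 28.6 and 49.0 CPM of Prkcd. In APP-PS1 PBS mice it was at 25.8, 28.1, 40.4, 23.5 and 25.2 CPM. The anti-CD8a values were 27.3, 26.7, 38.3, 123.7 and 27.1 CPM. Outside anti-CD8a replicate 4 the groups covered much the same range, and the next highest mouse was WT PBS replicate 5, the library with the most Ttr (6468 CPM). Ramp3 was at 3.19, 2.32, 3.58, 4.11 and 2.62 CPM in WT PBS mice. APP-PS1 PBS mice had 2.68, 3.07, 4.18, 2.65 and 2.32 CPM, and anti-CD8a mice had 2.14, 2.82, 2.66, 15.5 and 2.06 CPM. For Ramp3 the 14 other libraries kept within 2.06 to 4.18 CPM, and anti-CD8a replicate 4 was at 3.70 times the highest of them.

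The WT PBS values of Plekhg1 were 28.2, 28.3, 29.7, 35.8 and 30.7 CPM. In APP-PS1 PBS mice it was at 28.1, 30.6, 67.0, 29.3 and 31.6 CPM. Anti-CD8a mice had 29.5, 29.3, 39.0, 91.3 and 28.7 CPM. Anti-CD8a replicate 4 was at 3.08 times the median of the other 14, and APP-PS1 PBS replicate 3 was at 2.27 times the median of the remaining 13, which kept within 28.1 to 39.0 CPM.

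Tnnt1 encodes the troponin T of slow skeletal muscle and is also made by thalamic neurons. In WT PBS mice it was at 1.36, 0.979, 1.21, 2.71 and 1.04 CPM. In APP-PS1 PBS mice it was at 0.959, 1.24, 4.10, 0.946 and 2.32 CPM. Among anti-CD8a mice the values were 1.70, 0.942, 1.58, 24.7 and 1.07 CPM. It was the least counted of the 9, with 27 to 98 counts in 14 libraries and 717 in anti-CD8a replicate 4, which makes it the marker in which that mouse stood out most.

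Calb2 encodes calretinin, a calcium-binding protein of midline thalamic neurons and of interneurons elsewhere. WT PBS mice had 37.9, 31.5, 28.4, 33.3 and 33.1 CPM. APP-PS1 PBS mice had 28.1, 44.3, 31.3, 39.2 and 22.5 CPM, and anti-CD8a mice had 27.2, 32.9, 18.3, 31.9 and 35.5 CPM. Calb2 was in the middle of its range in anti-CD8a replicate 4 and highest in APP-PS1 PBS replicate 2, so it did not follow the other 8.

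Levels of different genes were compared per length, as CPM per kb of exon (GENCODE M21), in the WT PBS mice. Calb2 had the highest level of the 9, at 18.8 ± 1.97 CPM per kb (SD, n = 5). Rora followed at 6.01 ± 0.532, Prkcd at 5.22 ± 2.12, Slc17a6 at 4.83 ± 1.78, Plekhg1 at 3.49 ± 0.356, Ramp3 at 2.29 ± 0.523, Tcf7l2 at 0.778 ± 0.132, Tnnt1 at 0.663 ± 0.324 and Lef1 at 0.520 ± 0.0865, all in CPM per kb (SD, n = 5). Among neighbours in that order, the WT ranges were apart between Calb2 and Rora, between Plekhg1 and Ramp3 and between Ramp3 and Tcf7l2, and overlapped in the other 5 pairs. Slc17a7 stood at 150.5 CPM per kb in the same mice, above the range of all 9 markers.

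The members lie on 8 chromosomes of build GRCm38: Tcf7l2 at chr19:55741820-55933654, Lef1 at chr3:131110471-131224356, Prkcd at chr14:30595354-30626210, Rora at chr9:68653786-69388246, Calb2 at chr8:110137502-110168210, Tnnt1 at chr7:4504570-4516382, Ramp3 at chr11:6658521-6677475, Slc17a6 at chr7:51622006-51671119 and Plekhg1 at chr10:3740364-3967303. Tnnt1 and Slc17a6 share chromosome 7. Genes that overlap a member were counted at a mean of at most 0.304 CPM (Ppnr, within Tcf7l2). Those on the opposite strand, at Lef1, Rora, Ramp3 and Plekhg1, cannot be told apart from the member if the counting did not use strand, a setting that no source used here gives.

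Anti-CD8a replicate 4 was compared with all genes, not just the markers. Of 15683 genes with a mean of at least 1 CPM, 1606 (10.2%) were highest in this mouse, against 8 of the 9 markers. The markers vary together and were chosen with earlier results of these data known, so this contrast is a description and not a test. Only 31 genes were more than 1.5 times the next highest library there, and 6 of them were markers: Tnnt1 (6.02 times, rank 2), Ramp3 (3.70 times, rank 3), Prkcd (2.53 times, rank 5), Tcf7l2 (2.08 times, rank 8), Slc17a6 (1.72 times, rank 16) and Rora (1.67 times, rank 19). The others among the 10 largest ratios were Vipr2, Adra1b, Cenpj, Rgs16, Rab37 and Wnt3, named after their values were seen. Vipr2, a receptor for vasoactive intestinal peptide, led at 9.19 CPM against at most 1.33 CPM elsewhere. Adra1b, an adrenergic receptor gene, was at 10.1 against at most 3.39.

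A second list of 16 thalamic genes, none of them a member, was high in the same mouse. Of these, 12 were highest in anti-CD8a replicate 4, and Necab1, Cacna1g, Zic1 and Zic4 were not. APP-PS1 PBS replicate 3 came next for each of the 12. The lead over it ran from 1.01 times for Nexn to 4.11 times for Gbx2, with Ptpn4 at 1.05 times and Ptpn3 at 1.07 times. Of genes with a mean of at least 1 CPM, 10.2% were highest in anti-CD8a replicate 4. This list too was chosen with earlier results known, so its count is a description and not a test. The genes of this list described next were chosen after their values were seen. Gbx2, a homeobox factor of the developing thalamus, had 30 counts there (1.03 CPM) and 0 to 6 counts in each other library. Shox2, another homeobox factor, was at 18.7 CPM there and 16.6 CPM in APP-PS1 PBS replicate 3, against a median of 0.629 CPM over the 14 libraries other than the first. Rgs16, a brake on G protein signalling, was at 34.3 CPM against at most 15.5, and Slitrk6, a synaptic adhesion gene, at 10.4 against at most 6.69. Zic1 was highest in WT PBS replicate 5 (73.6 CPM), the Ttr-richest library, with anti-CD8a replicate 4 second at 61.2 CPM.

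**Figure D2:**
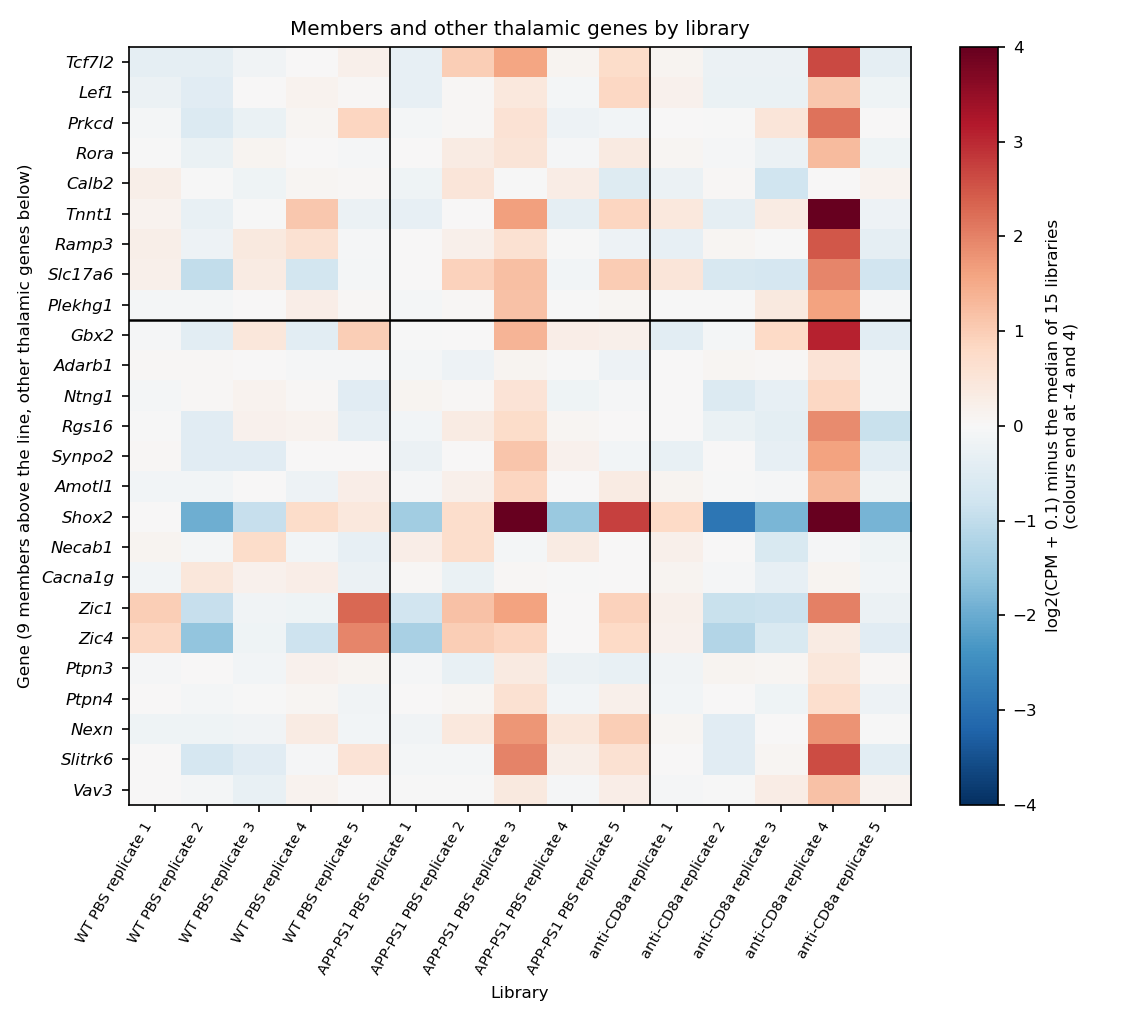
Each row is a gene (9 markers above the line, 16 other thalamic genes below) and each column a mouse; colour gives log2(CPM + 0.1) minus the gene's median over 15 libraries, with the colour scale cut at both ends. The column of anti-CD8a replicate 4 is raised in most rows, and that of APP-PS1 PBS replicate 3 less so.

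Summed over the list, the 9 markers reached 651 CPM in anti-CD8a replicate 4 and 173 to 358 CPM in the other 14 libraries. The 16 other thalamic genes summed to 1270 CPM there and to 713 to 1069 CPM elsewhere. Both upper ends, 358 and 1069 CPM, were those of APP-PS1 PBS replicate 3. Next came APP-PS1 PBS replicate 2 at 283 CPM for the markers and WT PBS replicate 3 at 860 CPM for the other thalamic genes. Summed in the same way, lists for neighbouring and distant territories did not follow. Such sums are led by the most counted genes of a list. Gene by gene, the habenular list was mixed when anti-CD8a replicate 4 was left out. Its median log2 fold change went from 0.045 to -0.284 for anti-CD8a against PBS in APP-PS1 mice. Against WT PBS it went from 0.125 to 0.192. The hypothalamic and midbrain sums were small, at 3.82 and 12.0 CPM in anti-CD8a replicate 4. The habenular list, for the small nucleus that borders the thalamus, summed to 57.8 CPM in that mouse (rank 10 of 15, 0.976 times the median of the other 14), the hypothalamic list was at rank 9, the hippocampal list at rank 9 (686.6 CPM) and the striatal list at rank 13 (158.2 CPM). The cortical list was at rank 1 but only 1.08 times that median. Lists for cell types that share a marker were also near their medians: 0.954 times for endothelium, which uses Lef1, and 0.965 times for committed oligodendrocyte precursors, which use Tcf7l2. The cerebellar list was at 0.933 times, the midbrain list at 1.04 times and the list of Vip interneurons, which use Calb2, at 1.06 times. Choroid plexus genes summed to 65.6 CPM, rank 14, below the median of 137.5 CPM.

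**Figure D3:**
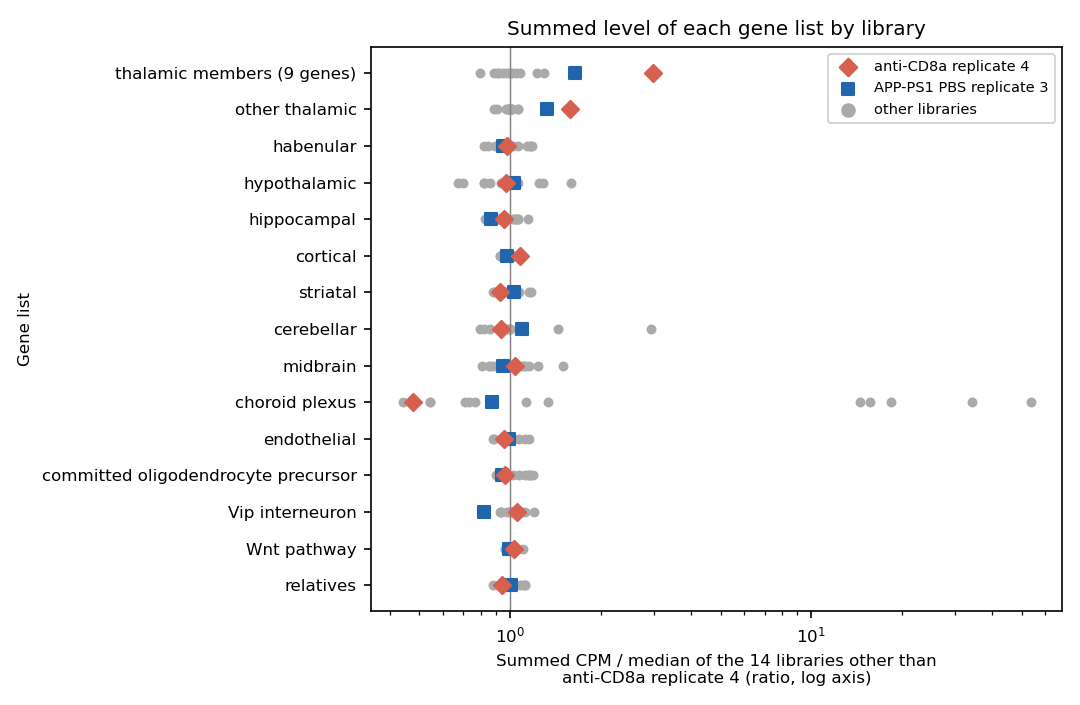
Summed CPM of each gene list in every library, divided by its median over the 14 libraries other than anti-CD8a replicate 4 (horizontal log axis, 1 point per mouse; red diamond anti-CD8a replicate 4, blue square APP-PS1 PBS replicate 3, grey the rest). The red diamond lies at 2.99 for the 9 markers and 1.58 for the other thalamic genes, and between 0.925 and 1.08 for the other lists except choroid plexus, at 0.477.

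The first comparison addresses the transgenes without the antibody. For APP-PS1 PBS against WT PBS, edgeR's quasi-likelihood test with Benjamini-Hochberg adjustment passed 0 of the 9 at 0.05, where 1.03% of all genes tested passed. An unadjusted p under 0.05 was also reached by 0 of 9, against 11.5% of all genes, and no marker had groups that did not overlap, against 2.89%. The estimates were higher in APP-PS1 mice for 5 markers (46.9% of all genes were) and lower for 4, with a median log2 fold change of 0.11 against -0.01 over all genes. These estimates are adjusted for labelled sex. Without that adjustment 7 were higher and 2 lower, with a median of 0.29. With it, Slc17a6 had the largest estimate (log2 fold change 0.57, SE 0.47, adjusted p = 0.677). Tcf7l2 was next at 0.51 (SE 0.52, adjusted p = 0.751). For Slc17a6 the 95% interval ran from 0.740-fold to 2.99-fold. Without anti-CD8a replicate 4, whose spread enters the shared model, Tcf7l2 was at 0.74 (SE 0.27, adjusted p = 0.297) and Slc17a6 at 0.72 (SE 0.33, adjusted p = 0.393). In that fit 3 of the 9, Tcf7l2, Rora and Slc17a6, reached an unadjusted p under 0.05, against 12.3% of all genes, and 0 of 9 passed after adjustment, against 1.01%. The library was left out because these markers were high in it, which narrows the spread of most of them. The shares of all genes are therefore not a fair background for this fit. The estimates were smallest, among fits that left out 1 library, without APP-PS1 PBS replicate 5, at 0.25 for Tcf7l2 and 0.14 for Slc17a6. Without the 5 libraries above 1000 CPM of Ttr, which include APP-PS1 PBS replicates 2 and 5, Tcf7l2 was at -0.14 (SE 0.74) and Slc17a6 at -0.07 (SE 0.64). The WT PBS mice left, replicates 1, 2 and 4, were all female by label, so labelled sex and group are hard to tell apart there. APP-PS1 PBS replicates 1, 3 and 4 had 5.95, 22.5 and 7.93 CPM of Tcf7l2, against 5.75, 5.73 and 7.41 in those WT mice. For Slc17a6 they had 29.2, 66.7 and 27.3 CPM, against 33.5, 14.7 and 17.7. The part of sex in these signs was not tested.

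The second comparison addresses the antibody in APP-PS1 mice. Again 0 of the 9 markers passed, and so did 0% of all 18974 genes in edgeR. An unadjusted p under 0.05 was reached by 0 of 9, against 13.3% of all genes, and no marker had groups apart, against 1.8%. DESeq2 called 143 genes over the whole table. It gave a p for 7 of the 9 markers in each comparison, not for Tnnt1 and Ramp3, and called 0 of the 7 in each. Estimates were higher for 6 markers (54.1% of all genes were higher) and lower for 3, and their median log2 fold change was 0.07 against 0.015 over all genes. Tnnt1 was at 1.42 (SE 0.81, adjusted p = 0.447), Prkcd at 0.72 (SE 0.34, adjusted p = 0.374) and Ramp3 at 0.69 (SE 0.46, adjusted p = 0.514). These 3 estimates rested on 1 mouse. Without anti-CD8a replicate 4, Tnnt1 was at -0.49 (SE 0.44, adjusted p = 0.610), Prkcd at 0.14 (SE 0.21, adjusted p = 0.792) and Ramp3 at -0.32 (SE 0.20, adjusted p = 0.466).

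With that mouse left out, 8 of the 9 estimates were lower in treated mice and 1 was higher, where 46% of all 19208 genes then tested were lower. The mouse was left out because these markers were high in it. Its removal lowers the treated values of 8 markers, those highest in it, far more than those of most genes. The shares of all genes are therefore not a fair background for this fit. The 3 of smallest p were Slc17a6 at -0.99 (SE 0.33, adjusted p = 0.228), Tcf7l2 at -0.90 (SE 0.27, adjusted p = 0.216) and Rora at -0.32 (SE 0.11, adjusted p = 0.228), the 3 markers that were high in APP-PS1 PBS replicates 2, 3 and 5. They were the only ones of the 9 with an unadjusted p under 0.05, against 14.9% of all genes in that fit, and neither they nor any other gene (0%) passed after adjustment. Tcf7l2, Rora, Tnnt1, Ramp3 and Plekhg1 went from higher to lower when this library was left out, Lef1, Calb2 and Slc17a6 were lower in both fits, and Prkcd was higher in both. With APP-PS1 PBS replicate 3 left out as well, Tcf7l2 was at -0.65 (SE 0.23, adjusted p = 0.396) and Slc17a6 at -0.89 (SE 0.35, adjusted p = 0.406). In that fit 6 of the 9 estimates were lower, against 49.6% of all genes, and Prkcd, Plekhg1 and Tnnt1 were higher, with Plekhg1 at 0.066 and Tnnt1 at 0.0028. Both mice were left out after these markers were seen to be high in them, so 49.6% is not a fair background either.

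**Figure D4:**
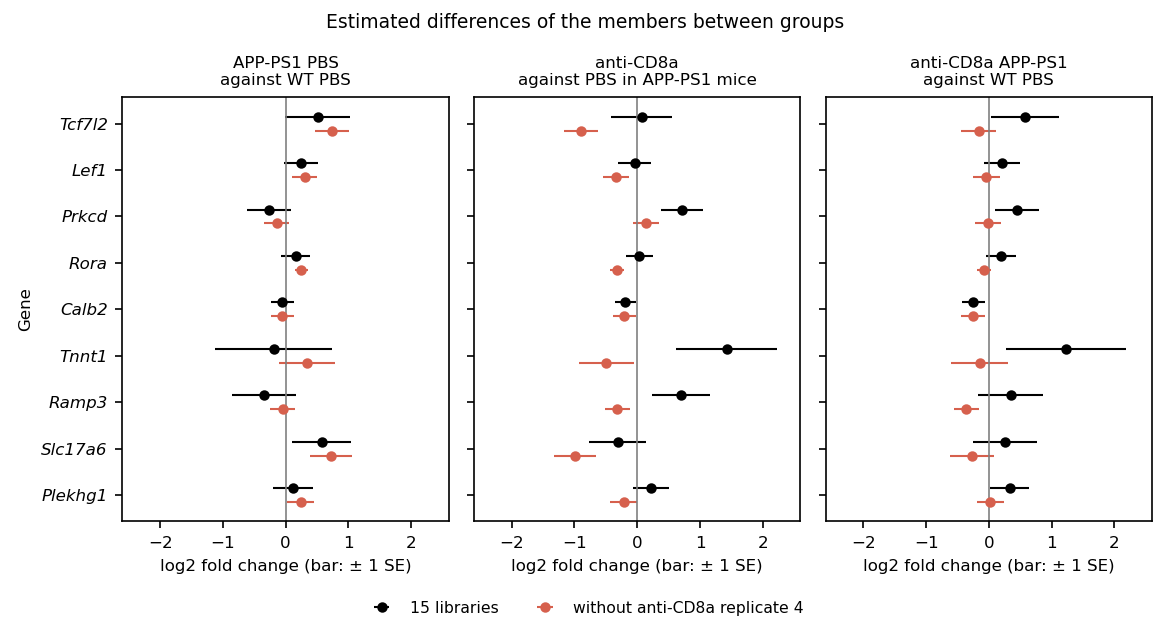
Log2 fold change of each marker in the 3 comparisons (horizontal axis; bars are 1 standard error), from all 15 libraries in black and without anti-CD8a replicate 4 in red. In the anti-CD8a against PBS panel, Tnnt1 moves from 1.42 to -0.49 and Tcf7l2 from 0.07 to -0.90.

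Treated APP-PS1 mice were also set against WT mice, a comparison that shares a group with each of the others. The test passed 0 of 9 markers, against 1.94% of all genes. An unadjusted p under 0.05 was reached by 0 of 9, against 12.1%, and groups were apart for 0 of 9, against 3.04%. Estimates were higher for 8 markers, with Calb2 the exception, where 48.9% of all genes were higher. Their median log2 fold change was 0.33, and Tnnt1 was the highest at 1.23 (SE 0.96, adjusted p = 0.665). Without anti-CD8a replicate 4, 8 of the 9 were lower, against 50.8% of all genes, their median was -0.15, and Tnnt1 was at -0.15 (SE 0.45, adjusted p = 0.925). As above, this mouse was left out because the markers were high in it, so 50.8% is not a fair background.

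Other genes of the pathways were counted in the same fits. Of 12 Wnt pathway genes, 11 were tested, and 0 passed in any comparison with edgeR or DESeq2. In edgeR 2, 1 and 0 had an unadjusted p under 0.05 in the 3 comparisons. Of all genes, 1.03, 0 and 1.94% passed in edgeR, and 11.5, 13.3 and 12.1% had an unadjusted p under 0.05. The same shares apply to the relatives and the other thalamic genes below. Axin2, a direct target of β-catenin, was at -0.23 (SE 0.09, adjusted p = 0.303) between APP-PS1 and WT mice and at 0.16 (SE 0.08, adjusted p = 0.414) between treated and untreated APP-PS1 mice. Of 21 relatives of the members (other PKC, RAMP, ROR, TCF, troponin, calcium-binding and vesicular transporter genes), 19 were tested and 0 passed with either tool, with 0, 1 and 0 at an unadjusted p under 0.05. Slc17a7 was at -0.15 (SE 0.09, adjusted p = 0.539) and 0.19 (SE 0.08, adjusted p = 0.336) in those comparisons, the opposite signs of its sister Slc17a6. Of the 16 other thalamic genes, 15 were tested and 0 passed in any comparison with either tool, with 0, 0 and 1 at an unadjusted p under 0.05. With anti-CD8a against PBS in APP-PS1 mice, 7 of them were higher and 8 lower, and without anti-CD8a replicate 4 the counts were 2 and 13, with a median log2 fold change of -0.39. In that fit 9 of the 15 had an unadjusted p under 0.05, against the same 14.9% of all genes, and 0 passed after adjustment. Of the 16 genes, 12 were highest in the mouse left out, so 14.9% is not a fair background here either. DESeq2 gave no adjusted p for Slitrk6 in any comparison, nor for the relatives Tcf7l1 and Tnnc1 in the second. On the lists for other territories and cell types, 2 genes passed in edgeR, both in treated APP-PS1 against WT mice: Pmch, a hypothalamic neuropeptide gene, at 2.33 (SE 0.52, adjusted p = 0.026) and Itpr2, a calcium release channel gene of oligodendrocyte precursors, at 0.35 (SE 0.075, adjusted p = 0.021). The hypothalamic list of 12 genes, Pmch among them, summed to at most 6.31 CPM in any library, a low level. In treated APP-PS1 against WT mice 1.94% of all genes passed in edgeR, and the lists of these 2 genes each had 6 genes tested. DESeq2 called the same 2 genes there and also the striatal gene Tac1, lower. In APP-PS1 PBS against WT PBS it called hippocampal genes including Lct and Dsp lower. In anti-CD8a against PBS it called 3 hippocampal genes higher (Lct, Cabp7 and Tdo2) and the endothelial Slc2a1 lower. All of these were named after their values were seen. The striatal, hippocampal and endothelial lists had 10, 11 and 8 genes tested. The counts that DESeq2 called over the whole table in these comparisons are given near the end.

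The 8 markers other than Calb2 varied together across mice. As a description over 15 libraries, which differ in depth, Pearson's r of log2 CPM for their 28 pairs ran from 0.581 to 0.955, with a median of 0.833, and Spearman's rho had a median of 0.568. The median r was 0.53 without anti-CD8a replicate 4 and 0.23 without APP-PS1 PBS replicate 3 as well, so the relation rested in large part on these 2 mice. Calb2 had r between -0.116 and 0.121 with the other 8. The genes outside the list whose pattern was most like the mean of the 9 over 15 libraries were Amotl1 (r = 0.947), Lrrc49 (0.944), Rgs16 (0.940), Patj (0.936), Pdp1 (0.936), Sptssb (0.932), Slitrk6 (0.924), Nefh (0.918), Synpo2 (0.918) and Mctp2 (0.916). Amotl1, Rgs16, Slitrk6 and Synpo2 are also on the second thalamic list. With both mice left out, the likeness of Patj was 0.914 and that of Lrrc49 0.842, and the other 8 lay between 0.470 and 0.775 over 13 libraries. For single markers, the nearest gene over 15 libraries had r between 0.820 (Qars for Calb2) and 0.971 (Lrrc49 for Tcf7l2). With both mice left out, Ankrd34c, the nearest to Slc17a6, was at 0.953, Sgpp2 to Rora at 0.924, Lrrc49 to Tcf7l2 at 0.879, Plcb4 to Lef1 at 0.861, Qars to Calb2 at 0.826, Mb21d2 to Ramp3 at 0.814, Grid2ip to Prkcd at 0.733, Cacna2d4 to Plekhg1 at 0.717 and Rab37 to Tnnt1 at 0.657. These genes were picked on all 15 libraries, so the values over 13 describe only the same picks.

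The spread among mice of a group was wide for these genes. Ranked among the 18974 genes tested, the within-group SD of log2 CPM was at percentile 99.5 for Tnnt1, 98.8 for Tcf7l2, 98.6 for Slc17a6, 98.1 for Ramp3, 96.9 for Prkcd, 93.1 for Plekhg1, 89.0 for Lef1, 84.6 for Rora and 78.0 for Calb2. Without anti-CD8a replicate 4 the percentiles were 97.5 for Tnnt1, 96.1 for Slc17a6, 92.4 for Tcf7l2, 85.4 for Prkcd, 81.4 for Plekhg1, 80.2 for Calb2, 80.0 for Lef1, 75.9 for Ramp3 and 57.7 for Rora.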

How the data were processed

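Poly(A) RNA was sequenced from a brain region of 15 mice with a stranded mRNA kit, per the labels' protocols. The deposited values are raw read counts per gene. Bowtie2 2.2.2, DESeq2, FastQC, HTSeq 0.11.2 and build GRCm38 are named, per the submitters' processing notes; no source used here gives the annotation release or the strand setting. If Bowtie2 did the alignment, reads over exon junctions may be undercounted, in all libraries alike. The 5 summary lines (19.97 to 25.85% of reads without a feature) were left out of library sizes. Groups came from the labels, with replicates numbered in accession order. CPM with TMM scaling and all tests were computed here with edgeR 4.0.16 (quasi-likelihood, two-sided, Benjamini-Hochberg over 18974 genes kept by filterByExpr), in 1 model of group and labelled sex with 11 residual degrees of freedom, in R 4.3.3. Standard errors were derived from the F statistic. DESeq2 1.42.0 and limma 3.58.1 (voom) were alternatives, with other scalings, filters, covariates and left-out libraries. The script was tested on simulated data. At 17736524 to 36485809 counts per library, the markers had 27 to 5603 counts each.

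Named genes were the 9 members, the members of other lists past the threshold or otherwise up to 3 of smallest p in a comparison, Ttr, Slc17a7 and Slc17a8, and the 10 genes (3 per member) of most similar pattern. The members and lists were chosen with earlier results of these data known. The fit without both anti-CD8a replicate 4 and APP-PS1 PBS replicate 3 was added after seeing the data.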

Additional observations from a re-analysis of the deposited data

Results flagged for a closer look

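Within each group of 5 mice, the gap between an extreme mouse and its nearest neighbour was set against the whole range of the group (Dixon's test, limit 0.710), for 9 markers in 3 groups. Chance flags about 1 in 20 such groups where they are independent, and 11 of the 27 were marked. These 27 are not independent, because the markers vary together and most of the marks come from 1 mouse. The rate of 1 in 20 is therefore not a fair background for the 11. Anti-CD8a replicate 4 was far above its group for 8 markers: Tcf7l2 (46.8 CPM), Lef1 (10.3 CPM), Prkcd (123.7 CPM), Rora (192.8 CPM), Tnnt1 (24.7 CPM), Ramp3 (15.5 CPM), Slc17a6 (114.6 CPM) and Plekhg1 (91.3 CPM). APP-PS1 PBS replicate 3 was far above its group for Prkcd (40.4 CPM) and Plekhg1 (67.0 CPM). WT PBS replicate 4 was far above its group for Tnnt1, at 2.71 CPM. No marker had a mouse far below its group, and Calb2 had none on either side.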

How the results depend on the processing

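No marker that was given a p passed the threshold in any comparison under any of the 30 settings, which were the main fit, 14 other settings and the removal of each library in turn (DESeq2 gave none for Tnnt1 and Ramp3); the smallest adjusted p was 0.297 for APP-PS1 PBS against WT PBS, 0.216 for anti-CD8a against PBS in APP-PS1 mice and 0.320 for anti-CD8a against WT PBS. Of the 261 fold changes refitted per comparison, 22, 28 and 19 changed sign. No paired analysis was possible because the labels' animal numbers are not shared between groups and the replicate numbers, given in accession order, pair nothing.

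Genes past the threshold over the whole table were 195, 0 and 369 in the main fit, in that order of comparisons. DESeq2 gave 361 and 143 in the first 2, no sex covariate 115 in the first, no filter 13 in the second, the 2 compared groups alone 1 and 221 in the last 2, the 83 animal number series alone 65 and 196 in the first and last, the libraries without high Ttr 98 and 199, and the removal of anti-CD8a replicate 4 and APP-PS1 PBS replicate 3 together 1 in the second. With each library left out in turn the counts ran from 145 to 253, 0 to 3 and 140 to 441, the last falling lowest without anti-CD8a replicate 3.

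Log2 fold changes of opposite sign follow, for which the cause was not tested. Without the libraries above 1000 CPM of Ttr, APP-PS1 PBS against WT PBS gave Tcf7l2 -0.14, Lef1 -0.17, Rora -0.16, Slc17a6 -0.071 and Plekhg1 -0.11, anti-CD8a against PBS gave Lef1 0.21 and Slc17a6 0.049, and anti-CD8a against WT PBS gave Slc17a6 -0.022. The fit of the 83 series alone leaves out anti-CD8a replicate 4 and APP-PS1 PBS replicates 3 and 5 together, since their numbers are of the 85 series. In this fit and the one without high Ttr, the WT PBS mice left were all female by label. In animals of the 83 series alone the values were Lef1 -0.018, Prkcd 0.23, Rora -0.00040, Calb2 0.21 and Slc17a6 -0.21, then Tcf7l2 -0.37, Lef1 0.052, Rora -0.088 and Ramp3 -0.19, then Rora -0.088, Ramp3 -0.22 and Slc17a6 -0.52. Between APP-PS1 PBS and WT PBS, no sex covariate gave Calb2 0.016 and Tnnt1 0.38, the number series as covariate Tnnt1 0.024, and the 2 groups alone Tnnt1 0.36. In anti-CD8a against PBS, limma-voom gave Tcf7l2 -0.18 and Rora -0.048, sex read from the genes Tcf7l2 -0.098 and Rora -0.039, and a choroid plexus covariate Tcf7l2 -0.039 and Lef1 0.021, the last also Ramp3 -0.012 against WT PBS. With anti-CD8a replicate 4 and APP-PS1 PBS replicate 3 both left out, anti-CD8a against PBS gave Tcf7l2 -0.65, Rora -0.27 and Ramp3 -0.18, and anti-CD8a against WT PBS gave Tcf7l2 -0.11, Lef1 -0.032, Prkcd -0.0025, Rora -0.061, Tnnt1 -0.032, Ramp3 -0.34 and Slc17a6 -0.24.

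Leaving out each library in turn gave ranges that crossed 0. For APP-PS1 PBS against WT PBS these were -0.10 to 0.35 for Lef1, -0.23 to 0.083 for Calb2, -0.79 to 0.34 for Tnnt1 and -0.091 to 0.24 for Plekhg1. For anti-CD8a against PBS they were -0.90 to 0.28 for Tcf7l2, -0.34 to 0.20 for Lef1, -0.32 to 0.14 for Rora, -0.49 to 1.81 for Tnnt1, -0.32 to 0.90 for Ramp3 and -0.22 to 0.50 for Plekhg1. For anti-CD8a against WT PBS they were -0.16 to 0.78 for Tcf7l2, -0.043 to 0.34 for Lef1, -0.0071 to 0.60 for Prkcd, -0.073 to 0.32 for Rora, -0.15 to 1.79 for Tnnt1, -0.36 to 0.54 for Ramp3 and -0.27 to 0.50 for Slc17a6. The lowest values of the last 2 sets came without anti-CD8a replicate 4.

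With 5 mice a group and 1 mouse far above the rest, intervals were wide, and a missed threshold does not show equal levels.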
